A study of Rattus norvegicus with 38 samples.

Results

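The 8 pups of the second cohort of this study were swabbed inside the cheek on postnatal day 2 (P2), before any of them was placed in a limited bedding and nesting (LBN) cage, and the pups that later entered LBN cages are compared here with those that stayed in standard cages (control). The 8 samples were picked by their labels, cohort 2 and P2, out of 38 in all. The later LBN pups were LBN2, LBN4, LBN9 and LBN11, and the later controls were C1, C5, C8 and C11. All were Sprague Dawley pups without a mutation or drug, swabbed before they were randomized, so this contrast is one of baselines. In the study as a whole, 19 pups in 2 cohorts, run on different dates, were swabbed on P2 and again on P10 after the time in the cages. Methylation was measured by reduced representation bisulfite sequencing (RRBS), and the authors deposited the methylation percentage of 3417 differentially methylated regions (DMRs) per sample. They had chosen these DMRs for a change between P2 and P10 within pups, the 8 pups described here included, so levels at both ages took part in the choice of regions. Read numbers were not given with the percentages, so their depth is unknown and a single value carries no error. The labels name neither the sex nor the dam or litter of a pup, and a sample is 1 swab of 1 pup.

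DNA methylation in mammals is found mostly at CpG dinucleotides, where a methyl group is kept through cell division by maintenance enzymes and removed passively or by TET enzymes. RRBS reads the CpGs near the cut sites of MspI, an enzyme that cuts at CCGG, so it samples CpG-rich sequence far more densely than the rest of the genome. A buccal swab holds epithelial cells of the cheek together with leukocytes, and since each cell type has its own methylation pattern, a different share of the cell types and a different methylation within a cell type cannot be told apart in these percentages.

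At P2, 479 of the 3417 DMRs (14.0%) differed between the later LBN and later control pups (limma on the log2 odds of methylation, Benjamini-Hochberg adjusted p under 0.05, n = 4 pups per group). Of these, 331 (9.69%) were less methylated and 148 (4.33%) were more methylated in the later LBN pups. The difference was between −39.3 and −9.60 percentage points at the lower DMRs and between 7.32 and 31.4 percentage points at the higher ones. The 4 later LBN pups lay wholly on one side of the 4 later controls at 820 DMRs (24.0%), namely above them at 366 (10.7%) and below them at 454 (13.3%), and 427 DMRs were both called and without overlap. The smallest adjusted p was 0.0149, and 1196 DMRs had an unadjusted p under 0.05. The calls ended just at the threshold in many places: the last DMR inside had an adjusted p of 0.04999, the first outside 0.0502, and 99 more lay between 0.05 and 0.06.

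The number of calls depended on single pups. It was 2 without C11, 7 without C5, 107 without C1, 0 without LBN9, 3 without LBN11 and 17 without LBN4, while leaving out C8 gave 671 and leaving out LBN2 gave 405. Where LBN9 was left out and no DMR passed in limma, 1011 DMRs still had an unadjusted p under 0.05. Over all fits with a pup left out, this number lay between 929 (without C11) and 1372 (without C8), against 1196 with every pup. Each of these fits also had fewer pups from which to estimate the spread. With 206 calls the count was also lower when the spread was estimated from all 4 groups of cohort 2, and with 86 when it was estimated from all 8 groups of both cohorts.

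No difference in the overall level was detectable. The mean over all DMRs was 49.0% ± 1.55 in the later LBN pups and 48.6% ± 0.817 in the later controls (SD, n = 4 each), a difference of 0.376 percentage points (exact permutation test, two-sided, p = 0.714). The later LBN pups had means of 50.6%, 48.8%, 46.9% and 49.5%, and the later controls 48.7%, 48.2%, 49.7% and 47.8%, so the controls lay within the range of the later LBN pups. More DMRs leaned upwards than downwards in the later LBN pups, 2028 against 1389, with a median difference of 2.62 percentage points or 0.21 on the log2 odds scale, although 331 of the 479 calls were decreases. That median was 0.21 as well when each sample was centred on its own median.

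Principal component analysis of the 8 samples, computed without the labels, set the groups apart on the first component (PC1, 44.8% of the variance). The groups did enter the authors' choice of DMRs, which asked for a change in at least 2 pups of the control or of the LBN group. The split on PC1 is thus not wholly blind to the labels. The scores of LBN2, LBN4, LBN9 and LBN11 were 20.5, 19.7, 23.1 and 29.6, against −19.8, −17.3, −4.71 and −51.0 in C1, C5, C8 and C11. Every later LBN pup was above every later control, with C8 nearest to the LBN pups and C11 farthest from them. The group means were 46.4 apart (exact permutation p = 0.0286, two-sided, the smallest p that 70 arrangements of 4 against 4 allow). The second component (21.6% of the variance) spread the pups within both groups (exact permutation p = 0.6). The distance between 2 pups was taken as the root mean square of their log2 odds differences over all DMRs. It averaged 0.826 (LBN) and 0.891 (control) for pups of the same group and 1.09 for pups of different groups. In cohort 1 at P2 these averages were 1.16, 1.04 and 1.07. The 2 groups of cohort 2 could not be shown to differ in how uniform they were (exact permutation p = 0.829). No sample was a copy of another: any pair of the 8 differed by over 0.5 percentage points at 3226 or more of the DMRs.

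**Figure D1:**
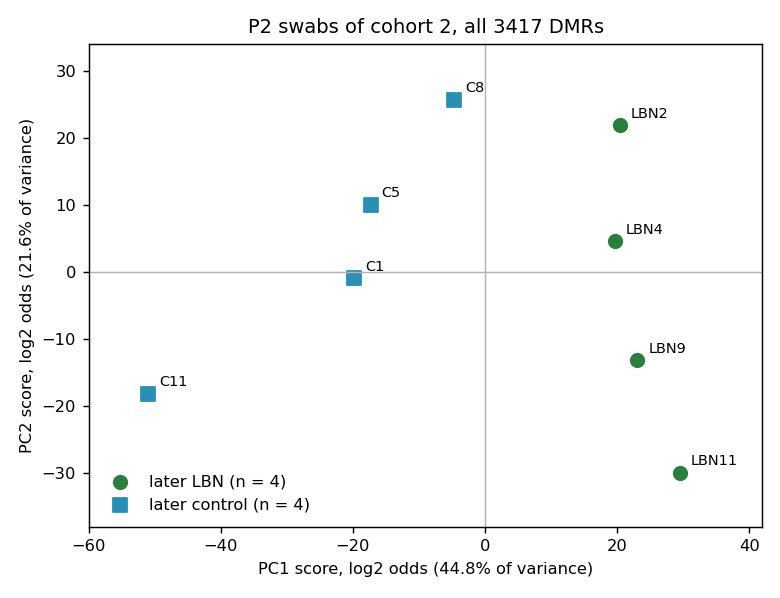
Scores of the 8 cohort 2 P2 samples on the first (x axis) and second (y axis) principal components of the log2 odds of methylation over all 3417 DMRs, with circles for later LBN and squares for later control pups. The later LBN pups lie between 19.7 and 29.6 on PC1 and the later controls between −51.0 and −4.71, while the groups overlap on PC2.

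Among the called DMRs, the direction of the difference went with the level that a DMR had in other pups. Classed by mean P2 level in the 11 pups of cohort 1, 365 DMRs were under 25%. Of these, 25 were called higher and 3 lower in the later LBN pups of cohort 2. Between 25% and 45% the counts were 88 higher and 65 lower of 852, and between 45% and 60% they were 27 higher and 118 lower of 937. Above that, decreases made up nearly all calls, 112 against 5 of 831 DMRs between 60% and 75%, and 33 against 3 of 432 above 75%. Over all DMRs of a class, called or not, the direction did not follow the level in this way. From the lowest class to the highest, the median difference was 0.570, 4.85, 5.47, 2.63 and 0.367 percentage points. The mean difference was 0.874, 1.38, 0.586, −0.518 and −0.759 percentage points. In cohort 2 itself, the lower DMRs had a median level of 47.7% in the later LBN pups and 71.9% in the later controls, and the higher DMRs 34.1% and 17.3%. Later controls thus held the more extreme levels in both sets, and later LBN pups the more intermediate ones.

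**Figure D2:**
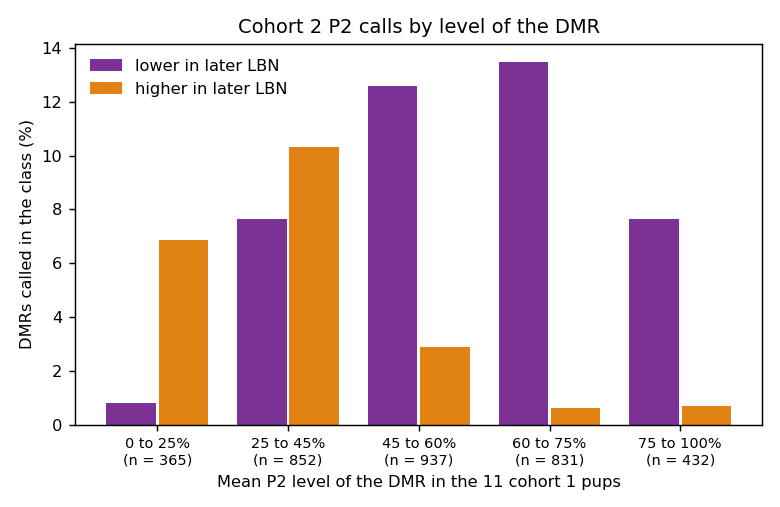
Share of DMRs called at P2 in cohort 2 (y axis, percent of the class) in 5 classes by mean P2 level in cohort 1 (x axis), with violet bars for DMRs lower and orange bars for DMRs higher in the later LBN pups. Increases peak at 10.3% of the class of 25% to 45%, and decreases at 13.5% of the class of 60% to 75%.

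Only 458 of the 3417 DMRs carry a gene name, which comes from the study's supplementary annotation of DMRs that weighed most in its analyses of age and of within-pup change. Among these, 54 were called, 44 lower and 10 higher in the later LBN pups, or 11.8% of the DMRs with a gene name. Of the 54, 51 stood in the study's lists for within-pup change, which had been chosen on the P2 and P10 levels of these pups among others, so their presence there is no independent evidence. Gene names exist only for listed DMRs, and these lists held 193 and 225 of the 594 listed. Their share among all DMRs with a gene name was not counted, so the 51 is not read as a concentration of calls. Positions below are on rn6, as deposited.

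The largest differences at DMRs with a gene name were decreases. At a CpG in an exon of Etv4 (chr10:89686677-89686678), which encodes an ETS-family transcription factor, LBN2, LBN4, LBN9 and LBN11 had levels of 51.2%, 52.4%, 31.8% and 20.5%, and C1, C5, C8 and C11 had 83.3%, 67.9%, 87.5% and 70%. All later LBN pups were below all later controls, by 38.2 percentage points on average (−2.50 ± 0.51 log2 odds, SE, limma adjusted p = 0.0229). In an intron of Snx29 (chr10:4155139-4155140), a sorting nexin gene, the later LBN pups had 67.4%, 45.7%, 58.7% and 33.3% and the later controls 76.9%, 84.4%, 96.3% and 88.6%. The lowest control, C1, was above the highest LBN pup, LBN2, and the difference was −35.2 percentage points (limma adjusted p = 0.0229). Selenon (chr5:152765544-152765545), the gene of an endoplasmic reticulum selenoprotein, had 43.9% ± 9.31 against 72.5% ± 10.3 (SD, n = 4 each) at an intergenic CpG. Nrp2 (chr9:69519411-69519412), a co-receptor for semaphorins and VEGF, had 19% ± 11.8 against 46.5% ± 7.24 in an intron. The groups were also apart at Map3k5 (55% against 80.7%), a stress-activated kinase gene, at Gramd1b (28.5% against 54%), a sterol transfer gene, at Zfp853 (42.1% against 67.7%), a zinc finger gene, and at Rab3gap2 (28.2% against 51.8%), which encodes a subunit of a regulator of Rab GTPases.

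Further decreases belong to the gene lists described below. In an intron of Sgk1 (chr1:24207835-24207836), a kinase gene induced by glucocorticoids, the later LBN pups had 46.1%, 53.9%, 35.8% and 44.6% and the later controls 63.1%, 74.6%, 71.2% and 80.0%. The groups did not overlap, and the difference was −27.1 percentage points (−1.66 ± 0.35 log2 odds, limma adjusted p = 0.0241). In an exon of Card10 (chr7:120011332-120011333), a scaffold that couples receptors to NF-kB, levels were 31.0%, 18.3%, 31.1% and 20.5% in the later LBN pups and 53.3%, 39.5%, 63.6% and 58.6% in the later controls. This was a difference of −28.5 percentage points, again without overlap (adjusted p = 0.0241). The Cd83 DMR (chr17:24402500-24402501) was an intergenic CpG annotated to a gene of mature dendritic cells and activated lymphocytes. The later LBN pups had 34.4%, 25%, 14.5% and 22.7% and the later controls 29.4%, 51.9%, 60% and 60%. Here C1 fell among the LBN pups, and the difference of −26.2 percentage points had an adjusted p of 0.0348.

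The 10 increases with a gene name began at low control levels. The Pik3cd DMR (chr5:166629752-166629792) was intergenic, and its gene encodes the PI3-kinase delta subunit of leukocytes. This DMR was the most even of the increases, with 24.8%, 24.9%, 26.1% and 26.1% in the later LBN pups and 5.92%, 8.54%, 10.1% and 6.59% in the later controls. The LBN pups lay within 2 points of each other and far above every control (17.7 percentage points, 1.92 ± 0.30 log2 odds, limma adjusted p = 0.0229). The largest increase with a gene name was at Atp8b1 (chr18:60091599-60091600), a phospholipid flippase gene, with 48.5% ± 10.0 against 27.4% ± 7.25 (SD, n = 4 each). Rasgef1b, an activator of Ras-family GTPases, had 32.6% against 11.8%, and Dusp10, a phosphatase of stress-activated MAP kinases, 35.5% against 19.2%. Gltp (25.5% against 11.1%), a glycolipid transfer gene, Efnb2 (31.9% against 17.8%), an ephrin ligand gene, AC133613.1 (21.3% against 9.54%) and Zfpm1 (21.8% against 10.5%), a cofactor of GATA factors, were higher by 11.3 to 14.3 percentage points. Hm13, a signal peptide peptidase gene, was listed at 0 in C1 and C8, at 9.30% in C5 and at 4% in C11, against 13.5% to 25% in the later LBN pups.

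**Figure D3:**
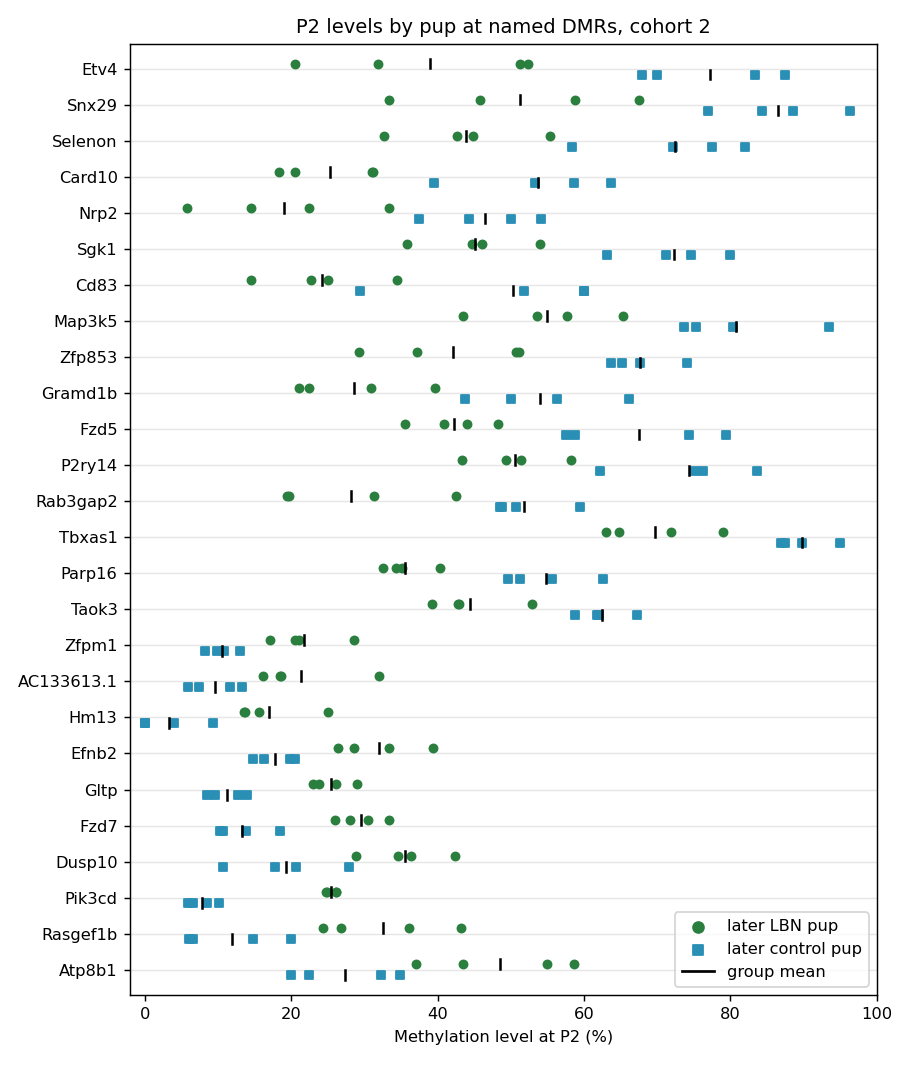
Methylation level at P2 (x axis, percent) of each later LBN pup (circles) and later control pup (squares) of cohort 2 at 26 named DMRs (y axis, by gene), with a black line at each group mean. The 16 upper DMRs are lower and the 10 below them higher in the later LBN pups, and the groups overlap only at Cd83.

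DMRs without a gene name held still larger differences. The largest decrease was at chr6:102632062-102632075, where the later LBN pups had 33.9%, 37.8%, 21.2% and 15.6% and the later controls 64.1%, 52.0%, 70.5% and 78.9%. Next to it in size was chr12:7949724-7949725, with 34.5% ± 14.9 against 73.3% ± 8.76 (SD, n = 4 each). The largest increase was at chr14:20924852-20924853, where the levels were 47.7%, 39.3%, 64.8% and 47.6% against 27.6%, 14.3%, 18.4% and 13.6%, followed by chr19:11576558-11576559 with 66.5% ± 11.6 against 37.5% ± 6.26. The groups did not overlap at any of these 4. Picked after the values were seen, for the smallest p of all, chr2:208111937-208111943 had 36.8% ± 4.28 against 72.2% ± 4.02 and chr14:9158709-9158710 had 48.7% ± 6.83 against 83.4% ± 3.22 (limma adjusted p = 0.0149 at both).

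Of 28 DMRs annotated to a promoter, 2 were called (7.14%, against 11.8% of the DMRs with a gene name, a difference that was not tested). Both were lower, and they are named here after their values were seen. Parp16 (chr8:70712183-70712195), the gene of an ADP-ribosyltransferase of the endoplasmic reticulum membrane, had 34.3%, 32.5%, 40.3% and 35.1% in the later LBN pups and 49.6%, 55.6%, 51.2% and 62.6% in the later controls. Taok3 (chr12:45182925-45182926), a gene of a STE20-type kinase, had 52.9%, 43.0%, 39.3% and 42.7% against 67.2%, 58.8%, 61.7% and 62.0%. Neither had overlapping groups, and the differences were −19.2 and −18.0 percentage points (limma adjusted p = 0.0361 and 0.0427). The RefSeq promoters of both genes, 250 bases before to 50 bases after the annotated start, are printed to show the sequence of the promoters to which the calls were annotated, with the MspI site CCGG, which reads the same on both strands, in capitals. They are from build GRCr8 (Parp16 at chr8:74626535-74626834, plus strand, and Taok3 at chr12:45134390-45134689, minus strand), so the rn6 position of a DMR was not placed within them and the printed bases need not hold it.
Parp16: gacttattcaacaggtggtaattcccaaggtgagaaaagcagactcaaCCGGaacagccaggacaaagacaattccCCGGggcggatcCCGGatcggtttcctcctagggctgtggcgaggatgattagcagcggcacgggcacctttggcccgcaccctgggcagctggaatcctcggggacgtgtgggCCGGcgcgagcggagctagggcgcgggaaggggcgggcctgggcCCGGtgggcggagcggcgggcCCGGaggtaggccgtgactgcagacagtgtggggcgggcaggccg
Taok3: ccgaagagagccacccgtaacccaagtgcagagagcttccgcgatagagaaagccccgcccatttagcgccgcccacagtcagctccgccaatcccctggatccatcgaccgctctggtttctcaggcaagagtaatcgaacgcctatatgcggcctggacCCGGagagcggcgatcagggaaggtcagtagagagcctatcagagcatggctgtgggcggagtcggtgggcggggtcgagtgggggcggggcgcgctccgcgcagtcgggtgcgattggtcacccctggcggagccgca
The Parp16 promoter holds 6 CCGG sites and 26 CpGs, and the Taok3 promoter 1 CCGG site and 29 CpGs. Of 33469 rat promoters of the same length, 51.4% hold at least 1 CCGG, and the median number of CpGs is 7.

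Genes were also grouped by lists. Among DMRs with a gene name, 11.8% were called and the median difference was −1.08 percentage points, and the lists are read against these values. In the NF-kB and TNF signalling list, 2 of 12 DMRs were called, Card10 and Cd83, both lower, with a median difference of −6.00 percentage points. Others of the list were not called, such as Traf3 (9.09% against 17.5%) and Tnfaip2 (33.7% against 44.7% at one DMR, 40.8% against 37.6% at another). Of the 12 DMRs, 4 were above 0, among them Peli2 (55.7% against 38.1%) and Traf1 (36.3% against 26.1%), which were not called either. The leukocyte list, of identity and signalling genes, had 4 of 17 called. Tbxas1, thromboxane synthase, was lower (69.6% ± 7.29 against 89.8% ± 3.67), P2ry14, a receptor for UDP-sugars, was lower (50.5% ± 6.14 against 74.3% ± 8.89), Cd83 was lower and Pik3cd was higher. The chemokine receptor genes of that list, Cxcr4 (36.4% against 58.2%, adjusted p = 0.0690 in limma) and Cxcr1 (22.9% against 35.0%, adjusted p = 0.0706), did not pass. Nor did Irf8 (15.6% against 8.64%, limma adjusted p = 0.0658), a transcription factor of myeloid cells whose groups did not overlap, or Cd37 (16.5% against 10.6%), a leukocyte tetraspanin, and 5 of the 17 DMRs were above 0. The median of the list was −5.58 percentage points.

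Of the 14 DMRs of Wnt, FGF, BMP and TGF-beta genes, 2 were called. They were annotated to a pair of Wnt receptor genes and went opposite ways. Fzd7 was higher at an exonic CpG, with 30.5%, 28%, 26% and 33.3% in the later LBN pups and 13.8%, 10.6%, 18.4% and 10.2% in the later controls. Fzd5 was lower at an intergenic CpG, with 48.3%, 44.0%, 40.9% and 35.6% against 57.6%, 79.4%, 58.8% and 74.4%. Neither gene had overlapping groups. Sgk1 was the 1 call among 3 DMRs of glucocorticoid and stress genes, the others being Htr2a (19.7% against 16.9%) and Agtr1a (5.48% against 4.70%).

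No DMR was called in the other lists. The homeobox list had 23 DMRs with a median difference of −2.65 percentage points, of which 14 were below 0. The lowest was at Dlx1 (26.3% against 36.6%). The list of T-box, GATA, forkhead and other developmental factors had 18 DMRs, of which 14 were below 0, with a median of −2.82. For the epithelial list the median over 10 DMRs was 1.75, with 7 above 0, such as Dsc3 (53.7% against 46.1%) and Epcam (7.69% against 5.94%), and 3 below, Calml3 (44.7% against 54.1%), Aqp3 (17.1% against 23.6%) and Krt75 (33.1% against 35.7%). For the DNA methylation machinery all 4 DMRs were below 0, from −13.4 (Gadd45b, which promotes demethylation) to −0.979 (Dnmt3a, a de novo methyltransferase). No DMR carried the name of a gene of the imprinted list, and the 2959 DMRs without a gene name could not be assigned to any list. The epithelial and leukocyte lists hold markers of the cell types of a swab, and 0 of 10 and 4 of 17 of their DMRs were called. The leukocyte list also holds signalling genes, and its calls were Tbxas1, P2ry14, Cd83 and Pik3cd. Among genes of the list chosen as leukocyte markers, Irf8 and Cd37 were higher and Lsp1 (28.5% against 37.2%), Cxcr1 and Cxcr4 lower. None of these markers was called. The part of the cell types in the other differences was not tested. Depending on the pup left out, the NF-kB list had 0 to 3 calls, the leukocyte list 0 to 4, the Wnt list 0 to 2, the homeobox list 0 to 2 and the glucocorticoid list 0 to 1.

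The X chromosome carried 10 of the DMRs, and 1 was called. At chrX:135194328-135194329 the later LBN pups had 63.4%, 54.3%, 53.2% and 34.8% and the later controls 84.2%, 76.8%, 76.7% and 75.8%, without overlap (limma adjusted p = 0.024). Elsewhere on X, pups of both groups were low together. At the Fam199x CpG, LBN4, LBN11 and C5 had 1.05%, 1.16% and 0%, and the other pups 13% to 24.7%. At chrX:54102394-54102395 the same 3 pups had 1.67%, 2.54% and 1.82% and the others 10.7% to 19.1%, and at chrX:156464190-156464191 they had 3.57%, 0% and 0% and the others 11.4% to 31.1%. The low pups were thus 2 of the later LBN pups and 1 of the later controls, and what part this imbalance has in the other differences was not tested. Without chromosome X, 484 DMRs were called.

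The same pups were compared at P10, after the time in the cages. No DMR was called between LBN and control pups of cohort 2 at P10 in limma (45 with an unadjusted p under 0.05), and the groups did not overlap at 38 DMRs (1.11%). At the 331 DMRs that were lower at P2, the LBN pups were above the controls at P10 at 311, with a median difference of 5.47 percentage points. At the 148 that were higher at P2, they were below the controls at 125, with a median of −3.54. Over all DMRs they were above the controls at P10 at 1523 and below at 1894. In cohort 1 at P10 the same DMRs lay the other way: LBN pups were below the controls at 278 of the 331 (median −9.41) and above them at 146 of the 148 (median 16.3), against 1933 above and 1484 below over all DMRs. None of these counts has a test of its own. Over all 3417 DMRs the differences at P2 and P10 correlated at r = −0.541, a description across DMRs that share their pups, and the DMRs had been chosen for change between these ages.

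The P2 levels of these pups chose the called DMRs, and levels at both ages had entered the authors' choice of regions, so the change from P2 to P10 is given as a description. The medians of a pup over the 331 lower DMRs were 69.6%, 71.3%, 68.0% and 76.7% in C1, C5, C8 and C11 at P2 and 34.1%, 53.6%, 36.8% and 39.9% at P10. In LBN2, LBN4, LBN9 and LBN11 they were 54.4%, 50.6%, 43.3% and 41.6% at P2 and 54.4%, 59.4%, 36.7% and 40.0% at P10. Every control pup was lower at P10 than at P2, whereas LBN4 was higher, LBN9 and LBN11 were lower and LBN2 was the same to 3 digits. DMR by DMR, the controls were lower at P10 at 330 of the 331, with a median change of −27.4 percentage points, and the LBN pups were higher at 178 and lower at 153, with a median change of 0.429. At the 148 higher DMRs the median change was 9.50 in the controls and −9.29 in the LBN pups.

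**Figure D4:**
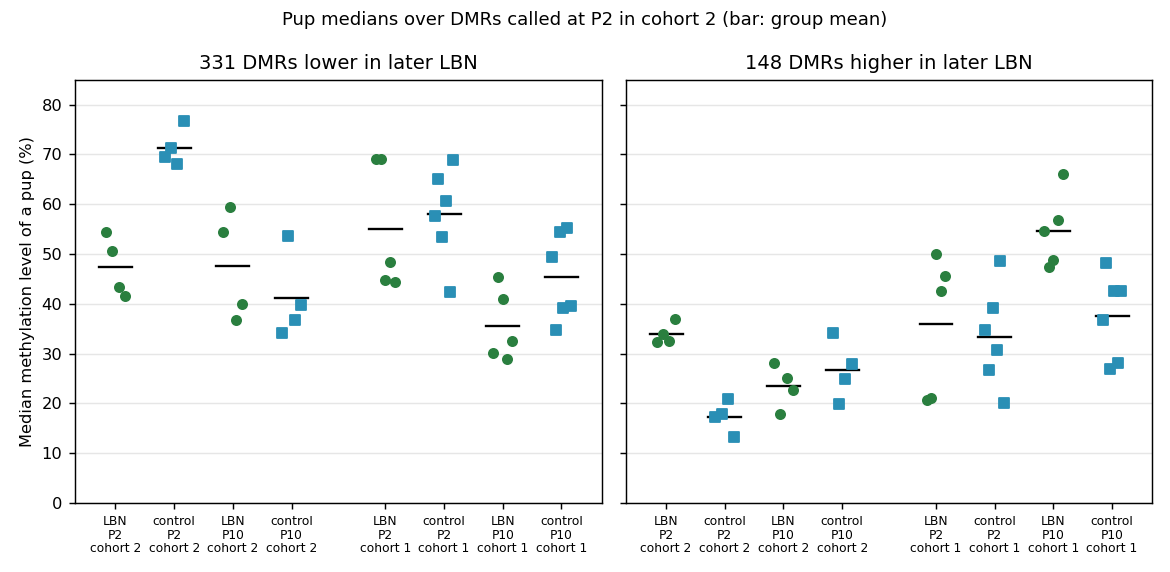
Median methylation level of each pup (y axis, percent) over the 331 DMRs called lower (left) and the 148 called higher (right) in the later LBN pups of cohort 2 at P2, for each group, age and cohort (x axis), with a line at the group mean. At P2 in cohort 2 the groups are separate because the DMRs were called there. At P10, and in cohort 1 at P2, the groups overlap.

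**Figure D5:**
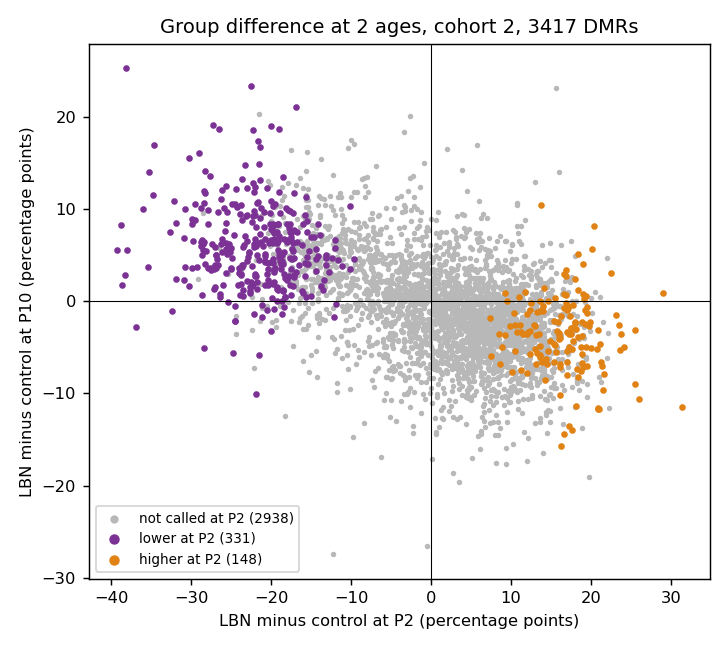
LBN minus control difference in mean methylation (percentage points) at P2 (x axis) and at P10 (y axis) in cohort 2 for 3417 DMRs, with DMRs called lower at P2 in violet, called higher in orange and not called in grey. Of the 331 violet DMRs, 311 lie above 0 at P10, and of the 148 orange ones 125 lie below 0.

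As a test of within-pup change (P10 minus P2 of each pup on the log2 odds scale), LBN and control pups differed at 2 DMRs (0.0585%), with 809 at an unadjusted p under 0.05. Both were among the decreases at P2. At chr15:40479196-40479197, the levels at P2 were 45%, 56.2%, 41.2% and 38.5% in the later LBN pups and 81.2%, 93.8%, 72.7% and 85.7% in the later controls. At P10 they were 66.1% ± 17.2 and 40.8% ± 17.4 (SD, n = 4 each). The change was 4.30 ± 0.56 log2 odds more upwards in LBN pups (limma adjusted p = 0.0186). At chr14:9158709-9158710 the groups went from 48.7% and 83.4% to 70.2% ± 7.21 and 53.3% ± 14.5, a difference in change of 3.39 ± 0.52 (adjusted p = 0.047). Since the P2 level enters this change with a minus sign, these values are not independent of the P2 difference. The count rested on single pups here too: it was 23 without C5, 1 without C8 or LBN11, and 0 without C1, LBN2, LBN4 or LBN9, with 523 to 695 DMRs at an unadjusted p under 0.05 in these last 4 fits. Without the pairing by pup there were 34 calls.

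The same baseline contrast in cohort 1, between 5 later LBN and 6 later control pups, called no DMR in limma (59 with an unadjusted p under 0.05). The test of the difference between the cohorts also called none, with 319 at an unadjusted p under 0.05, so the P2 difference was not shown to be particular to cohort 2. At the 331 lower DMRs the later LBN pups of cohort 1 were below the later controls at 222, with a median difference of −2.33 percentage points, and at the 148 higher DMRs they were above them at 107, with a median of 2.58. These are 67.1% and 72.3% of the DMRs, against a near even split of 1704 above and 1713 below over all DMRs.

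Pups of cohort 1 varied along the same DMRs, but within both groups. Their medians over the 331 DMRs at P2 were 69.0%, 69.0%, 44.8%, 48.5% and 44.4% in LBN2, LBN3, LBN4, LBN9 and LBN12. In C3, C4, C6, C7, C9 and C12 they were 57.7%, 65.0%, 53.3%, 60.7%, 42.3% and 68.9%. The lowest and the highest values of each group nearly coincide. The first principal component of the 11 cohort 1 P2 samples held 55.9% of their variance, and its scores did not separate the groups (difference 14.7, exact permutation p = 0.472). Across the 3417 DMRs, its weights correlated at r = 0.800 with the PC1 weights of the 8 cohort 2 samples and at r = 0.735 with the P2 difference of cohort 2 in log2 odds. The P2 difference also correlated at r = 0.668 with the mean change of the cohort 1 pups from P2 to P10, against r = 0.352 with the P2 difference of cohort 1. These correlations use different pups in the 2 cohorts and are given without a p, since DMRs are not independent of each other and were selected for change with age.

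At the named DMRs the cohorts went the same way in some cases only. Of the 16 named decreases with a gene name, 9 were below 0 in cohort 1 and 7 above, and of the 10 increases, 7 were above 0 and 3 below. Card10 had 58.4% against 65.6% in cohort 1, and Cd83 had 46.6% against 53.4%. Nrp2, lower by 27.5 percentage points in cohort 2, was higher by 16.1 in cohort 1 (51.6% against 35.4%). Etv4 (68.4% against 63.9%) and Sgk1 (51.9% against 50.3%) had differences of 4.53 and 1.62. No test of a named DMR for a difference between the cohorts passed (limma adjusted p from 0.156 to 0.805).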

How the data were processed

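Buccal swab DNA was cut with MspI, bisulfite treated and sequenced. By the methods and the submitters' processing notes, reads were trimmed with Trim Galore 0.4.3 and aligned to rn6 with Bismark 0.16.3. The authors kept CpGs covered by over 10 reads and tested the 2 swabs of each pup against each other (false discovery rate 0.05). They kept CpGs that changed in at least 2 pups of the control or of the LBN group and joined those up to 100 base pairs apart. The deposited percentages are the share of methylated reads over a DMR, not corrected for cohort, and with no read numbers another coverage minimum could not be tried.

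Percentages were turned into log2((percent + 1)/(100 − percent + 1)), and limma 3.58.1 (R 4.3.3) was fitted over all 3417 DMRs with two-sided tests and Benjamini-Hochberg adjustment at 0.05. P2 and P10 samples of 1 name are the same animal and were paired through their difference. Means, component scores and spread were compared by exact permutation tests over samples. Python 3.11.15, numpy 2.4.6, pandas 2.3.3 and matplotlib 3.10.9 were used, and the limma fits were run on simulated data. The simulated DMRs varied independently of each other. That run therefore cannot show how the calls behave where DMRs vary together, as they do here. Every test took pups as independent. By the paper, pups of several litters were mixed and assigned at random to dams after the P2 swab. At P2 a birth litter shared within a group would lower the p-values. At P10 and in the within-pup change, so would a shared rearing dam. Neither was tested.

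Gene names and features come from the supplementary annotation (458 DMRs), whose levels and weights were not used. Named DMRs are the 12 largest called differences without overlap in each direction that have a gene name (10 exist among increases), the 2 largest without one, and up to 4 called DMRs of each list. The promoters, the smallest p and the 2 DMRs with a different change were added after their values were seen, and a T-box pattern that caught Tbxas1 was corrected. The members, lists and tests were chosen with earlier results of these data known. Promoter sequences are from RefSeq (GRCr8), and rn6 sequence was not analysed here. Alternatives were other scales, pseudocounts, filters, variance models and each pup left out.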

Additional observations from a re-analysis of the deposited data

Results flagged for a closer look

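In groups of 4 pups, 5 levels stood far from the other 3 by Dixon's test, out of 114 groups examined, where chance alone gives about 1 in 20. At AC133613.1 (chr14:82302961-82302962), LBN11 had 32.0% and the other later LBN pups 16.2% to 18.6%. The other 4 were on chromosome X among the later controls. C5 had 1.82% at chrX:54102394-54102395, 33.9% at chrX:69100828-69100829 and 60.3% at chrX:71277861-71277862, below the other controls each time, and C1 had 84.2% at chrX:135194328-135194329, above them. LBN4 and LBN11, low with C5 on X as described above, had 1.67% and 2.54% at the first of these DMRs. At the second they had 36.2% and 20.3%, and at the third 77.3% and 68.2%. Flags that share a pup are not independent, so their count cannot be weighed against the rate expected by chance.

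At 2 DMRs the change from P2 to P10 differed between LBN and control pups of cohort 2 by a test of that difference (limma over all 3417 DMRs). It was 3.39 log2 odds at chr14:9158709-9158710 and 4.30 log2 odds at chr15:40479196-40479197, both more upwards in LBN pups. The P2 levels that enter these changes were among those called at P2.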

How the results depend on the processing

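The count of DMRs called at P2 in cohort 2 stayed between 402 and 678 under other scales, pseudocounts, filters on level, eBayes settings, centring, sample weights and without chromosome X. It was 129 when the 2510 single-CpG DMRs were fitted and adjusted alone, while the fit over all DMRs called 105 of them higher and 198 lower. The count was 206 and 86 with the spread shared by the 4 groups of cohort 2 and by all 8 groups, and 0 to 671 with 1 pup left out. The share of increases among the calls was 30.9%, and 44.0% on the scale log2(percent + 1). The difference between the cohorts called 1 DMR on percentages and 3 on log2(percent + 1), against 0. The within-pup change gave 78 calls on percentages, 0 on log2(percent + 1), 1 and 12 with pseudocounts of 0.5 and 5, 1 with a trend, 1 after centring, and 0 to 23 with 1 pup left out. Without the replicate block, that is with P2 and P10 samples not paired by pup, it gave 34. At P2 the later LBN pups could not be paired with the later controls, since they are different animals, also where both groups have a number 11. The PC1 difference ranged from 40.7 to 52.5 with 1 pup left out, with exact permutation p = 0.0571 without LBN9 or without LBN11. The difference in mean level was −0.179 without LBN2 (range −0.179 to 1.06 with 1 pup left out), and the difference in spread was 0.00969 without LBN4 and 0.0611 without C11 (range −0.144 to 0.0611). The cause of these changes was not tested, except that fewer DMRs or pups entered some fits. The P2 counts of cohort 1 and the P10 counts of cohort 2 were 0 under every alternative run. Over 685 refits of the 33 named DMRs, none turned direction and 213 lost the call, 41 of them among the 421 with all pups. Over the fits of the P2 contrast, each with its own calls, the median P10 difference at the lower DMRs ranged from 5.02 to 10.3. At the higher ones it ranged from −8.31 to −3.04. Some of these medians rest on very few DMRs, such as 2 lower ones without C11 and 2 higher ones without C5 or without LBN4. Fits without a call in a direction gave no median for it. Depth is unknown, so what it limits could not be stated.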

Other observations

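The calls at P2 in cohort 2 were spread over the genome. Among the 20 chromosomes with 50 or more DMRs, between 10.1% (chromosome 8) and 22.2% (chromosome 12) of the DMRs were called. On chromosome 12, 32 of 189 were lower and 10 higher in the later LBN pups. DMRs that span more than a single CpG were called at 133 lower and 43 higher of 907 (19.4%), and single CpGs at 198 lower and 105 higher of 2510 (12.1%). By annotated feature, 27 of 202 intronic DMRs, 9 of 93 exonic, 4 of 22 at transcription termination sites and 12 of 113 intergenic ones were called (13.4%, 9.68%, 18.2% and 10.6%, against 11.8% of all DMRs with a gene name). These counts were not tested against each other.

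Over all DMRs, 14.0% were called at P2, 9.69% lower and 4.33% higher in the later LBN pups. The study's lists of DMRs that weighed most in within-pup change held 193 and 225 DMRs. Of the 193 with positive weights, 37 (19.2%) were lower and 6 (3.11%) higher at P2 in the later LBN pups, with a median difference of −4.22 percentage points at P2 and 2.68 at P10. Of the 225 with negative weights, 16 (7.11%) were lower and 5 (2.22%) higher, with medians of 0.173 at P2 and −1.72 at P10. These lists had been chosen on log2(P10/P2) of the same pups, in which the P2 level is the divisor. In the study's lists for age, 4 of 135 (2.96%) and 2 of 114 (1.75%) DMRs were called.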
